A study of Mus musculus with 2 samples.

Results

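The genes described here are 42 cell cycle genes, 22 that act in DNA replication (the S-phase group) and 20 that act in mitosis. They were taken by name, with every probe set that the platform annotation assigns to the gene alone, and not by their values. Earlier results of these data were known when the genes were chosen. Of the 42 genes, 41 were measured, among 18193 named genes on the array. The exception was *Ccnb1*, encoding cyclin B1, for which no probe set was named here and which was not analysed here. Expression was measured on 2 Affymetrix mouse genome arrays, each given RNA of E17.5 femoral cartilage from *Tric-b*-knockout embryos (strain label C57BL/6J, 129Sv, Tric-b-KO). TRIC-B is a cation channel of the endoplasmic reticulum, and its loss is shared by both specimens. One array held RNA of the plate portion enriched with round chondrocytes. The other held RNA of the portion with columnar and hypertrophic chondrocytes, and per the labels each RNA was a mix of 3 preparations. Each zone therefore had 1 array, so no difference carries a test or a standard error, and wild-type cartilage was not analysed here. The sources used here do not place the *Tmem38b* (TRIC-B) probes relative to the deletion, so the arrays do not check the genotype.

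A dividing cell copies its genome in S phase and separates the copies in mitosis. Before replication, CDC6 and CDT1 help load the ring of MCM2 to MCM7 proteins onto replication origins, and CDC45 and the GINS proteins then turn that ring into an active helicase. Many genes of this machinery are transcribed under E2F factors as cells enter S phase, whereas mitotic genes peak later, under complexes that read CHR and CCAAT promoter elements. In the growth plate, round chondrocytes divide at the epiphyseal end, flat columnar chondrocytes divide in stacks, and hypertrophic chondrocytes have left the cell cycle. The columnar and hypertrophic specimen thus joined dividing and non-dividing cells. In such bulk RNA, fewer cycling cells and less RNA per cycling cell cannot be told apart.

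By the brightest probe set of each gene, the S-phase members had higher signals in the round chondrocyte array, by small amounts. All 22 S-phase members lay on that side, with fold differences from 1.01 for *Gins1* to 1.68 for *Prim1* (20 of 22 after quantile normalization or lowess centring of the arrays, and 21 after median centring or with specific probe sets only). Of all 12714 genes compared, 53.1% were higher in the round-cell array. The mitosis members were split: 15 of 19 were higher in the round-cell array, and *Aurka*, *Cdc20*, *Plk1* and *Ube2c* had the higher signal in the columnar and hypertrophic array. That split became 13 and 6 after median centring and 17 and 2 after quantile normalization or lowess centring. The median log2 difference, columnar/hypertrophic minus round, was -0.37 for the S-phase group and -0.16 for the mitosis group, beside -0.04 over all compared genes.

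None of these differences was large. A difference of at least 1.5-fold in favour of the round-cell array was reached by 1 S-phase member (*Prim1*) and 1 mitosis member (*Kif20a*), against 15.2% of all compared genes. No member was 1.5-fold higher in the columnar and hypertrophic array, where 10.4% of all genes were. At 2-fold there was no member in either direction, while 6.17% of all genes passed on the round side and 4.26% on the other. The share past a fold was thus lower among the members than among all genes. The S-phase values shared a side as deposited, though 3 members changed it in at least 1 setting. The middle 50% of the S-phase log2 differences ran from -0.51 to -0.27, that of the mitosis group from -0.33 to -0.05, and that of all genes from -0.38 to 0.26. Members of a single pathway are transcribed together and are not independent of each other, and no test was made of these counts.

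**Figure D1:**
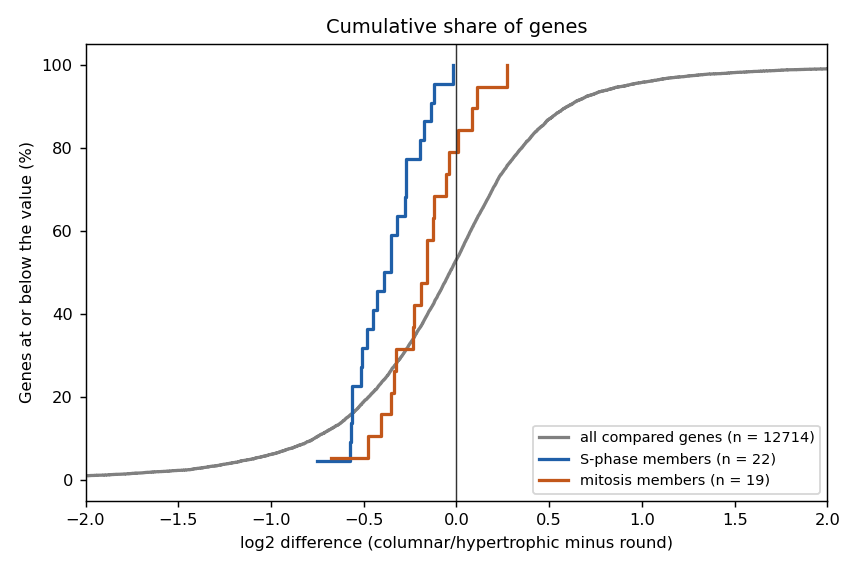
Cumulative share of genes (y axis, percent) at or below each log2 difference, columnar/hypertrophic minus round (x axis), for all 12714 compared genes (grey), 22 S-phase members (blue) and 19 mitosis members (orange). The blue line reaches 100% left of 0, whereas the orange line crosses 0 with 4 members to its right. After quantile normalization 20 of the 22 blue values lie left of 0.

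Each of the 41 measured members was read above the detection floor, a signal of 65.9, in both arrays. Signals are hybridization intensities that depend on the probes, so they are compared between the arrays for a gene and not between genes. The S-phase members ran from 159 to 11181 in the round-cell array (median 1330) and from 106 to 10155 in the columnar and hypertrophic array (median 1044). The mitosis members ran from 610 to 4929 (median 2001) and from 478 to 4450 (median 1671), respectively. The plot of signals by member shows the shift of each gene.

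**Figure D2:**
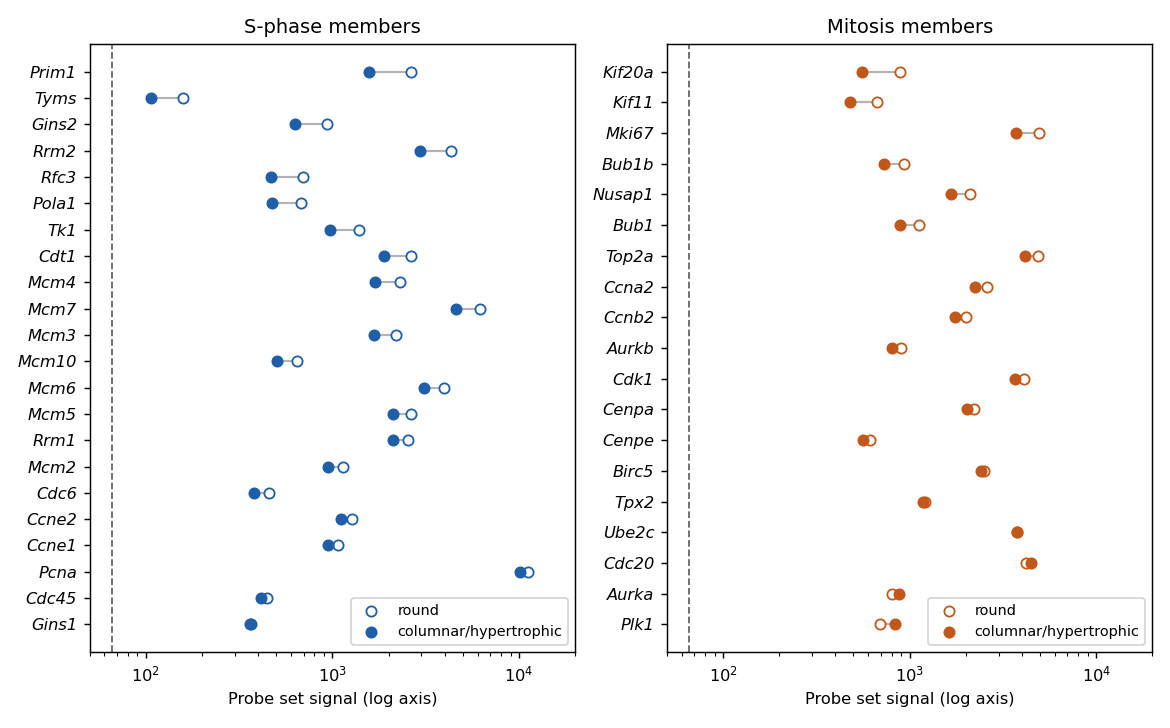
Signal of each member (log axis) in the round-cell array as open circles and in the columnar and hypertrophic array as filled circles, 1 array per zone, with the S-phase group on the left and the mitosis group on the right, ordered by log2 difference. The dashed line is the floor of 65.9. *Prim1* moved from 2647 to 1574, and *Gins1* stayed at 365 and 361. *Plk1* had 696 and 839, the reverse order.

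Promoter sequences are shown for 4 members, to set the replication and mitosis groups beside the elements they are known for. In each group these were the genes with a sequence at hand whose log2 difference was the most negative (*Prim1* and *Kif11*) and the nearest to 0 (*Cdc45* and *Ube2c*). Each run is the 250 bases before the RefSeq start site on build GRCm38.p6, written 5′ to 3′ on the strand of the gene. Capitals mark E2F-type letters (TTCGCGC, its variant TTGGCGC, the form TTCCCGC and the form TTGCCGC), CHR-type letters (TTTGAA and its variant TTCGAA) and CCAAT, each searched on both strands.
*Prim1*, chr10:128014965-128015214, plus strand: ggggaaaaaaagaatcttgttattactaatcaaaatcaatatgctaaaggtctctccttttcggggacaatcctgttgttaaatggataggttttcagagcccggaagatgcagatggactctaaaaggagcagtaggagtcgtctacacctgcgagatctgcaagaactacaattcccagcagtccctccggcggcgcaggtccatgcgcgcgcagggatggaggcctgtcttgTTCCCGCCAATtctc
*Cdc45*, chr16:18811973-18812222, minus strand: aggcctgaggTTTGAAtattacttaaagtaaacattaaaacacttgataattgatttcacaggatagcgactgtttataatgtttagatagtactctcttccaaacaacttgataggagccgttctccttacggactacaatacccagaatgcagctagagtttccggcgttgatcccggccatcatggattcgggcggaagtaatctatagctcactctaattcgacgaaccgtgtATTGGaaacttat
*Kif11*, chr19:37376132-37376381, plus strand: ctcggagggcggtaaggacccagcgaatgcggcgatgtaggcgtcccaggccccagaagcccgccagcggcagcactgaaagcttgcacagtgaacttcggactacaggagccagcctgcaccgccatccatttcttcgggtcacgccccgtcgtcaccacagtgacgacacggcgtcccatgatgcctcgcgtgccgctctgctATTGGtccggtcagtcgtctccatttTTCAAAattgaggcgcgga
*Ube2c*, chr2:164769679-164769928, plus strand: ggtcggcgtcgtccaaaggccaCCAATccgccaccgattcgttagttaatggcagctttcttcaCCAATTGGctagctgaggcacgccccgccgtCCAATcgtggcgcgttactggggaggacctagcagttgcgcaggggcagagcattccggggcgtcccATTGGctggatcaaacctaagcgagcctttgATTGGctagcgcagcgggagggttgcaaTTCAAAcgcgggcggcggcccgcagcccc

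The *Prim1* promoter held TTCCCGC from -15 to -9 before the start, sharing its last base with a CCAAT from -9 to -5. That of *Kif11* held a reverse-strand CCAAT from -45 to -41 and reverse-strand TTTGAA from -19 to -14. *Ube2c* had the same pair of elements, with TTTGAA on the reverse strand from -29 to -24 and 6 CCAAT matches upstream, 2 of which overlap. In *Cdc45* the CHR-type letters lay far from the start, from -240 to -235, and a reverse-strand CCAAT from -13 to -9. Across the measured members with a sequence, E2F-type letters were found in 10 of 19 promoters of 18 S-phase genes and in 2 of 15 of the mitosis group, beside 7.89% of all 32851 promoters. CHR-type letters stood in 4 of 19 S-phase and 8 of 15 mitosis promoters, beside 17.1% of all. CCAAT stood in 14 of 19 and 13 of 15, beside 33.8%, and both CHR-type letters and CCAAT in 4 and 8, beside 6.02%. CHR-type letters and CCAAT stood together in *Cdc20* and *Ube2c*, while *Aurka* and *Plk1* held CCAAT alone. A match of letters is a description of the sequence and shows no binding.

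The helicase genes lay close together. The 8 genes of origin licensing had a median log2 difference of -0.37 and spanned only -0.48 to -0.27. *Mcm7*, encoding a helicase subunit, had signals of 6163 in the round-cell array and 4584 in the columnar and hypertrophic array, a 1.34-fold difference. *Mcm4* had 2299 and 1685 (1.36-fold) and *Mcm3* 2194 and 1674 (1.31-fold). The remaining subunits were a little closer together between the zones. *Mcm6* had 3947 and 3094, *Mcm5* 2624 and 2103, and *Mcm2* 1138 and 942, that is 1.28-, 1.25- and 1.21-fold, respectively. Of the MCM loaders, *Cdt1* had signals of 2636 and 1886 (1.40-fold) and *Cdc6*, encoding the ATPase that recruits it, 457 and 379 (1.21-fold).

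The genes that fire the loaded origin were less uniform, with a median of -0.18 over 6 genes. *Gins2* and *Gins1* encode partners in the same complex, yet stood at opposite ends by their brightest probe sets. *Gins2* had signals of 935 and 630 (1.48-fold), and *Gins1* had 365 and 361. That *Gins2* probe set is marked as shared (suffix s), and the specific one was closer between the zones, at 595 and 485 (1.23-fold). *Mcm10*, which stabilizes the activated helicase, had 646 and 506 (1.28-fold), and *Cdc45*, the helicase cofactor, 448 and 412. A dimmer *Cdc45* probe set gave a log2 difference of -0.39. Both cyclin E genes, whose products drive cells into S phase with CDK2, differed little. *Ccne2* had 1278 and 1117, and *Ccne1* had 1065 and 944. The second probe set of *Ccne1* lay on the other side, at 426 and 477, so this gene's direction depends on the probe set. *Gins1* turned to the columnar/hypertrophic side after median centring, and *Gins1* and *Cdc45* did so after quantile normalization or lowess centring.

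By role, the 4 genes for fork synthesis and the 4 for deoxynucleotide supply each had a median log2 difference of -0.54, beside -0.37 for licensing and the helicase and -0.18 for origin firing. *Prim1*, encoding the catalytic primase subunit that lays down RNA primers, had signals of 2647 and 1574, the widest gap of the 41 members at 1.68-fold. Its other probe set had a log2 difference of -0.92. *Pola1*, encoding the polymerase alpha subunit that extends those primers, had 675 and 473 (1.43-fold). *Rfc3*, encoding a subunit of the clamp loader, had 694 and 470 (1.48-fold). The clamp itself was an exception, since *Pcna* had 11181 and 10155, only 1.10-fold apart. In the deoxynucleotide group, *Rrm2*, the S-phase-regulated subunit of ribonucleotide reductase, had 4340 and 2935 (1.48-fold), and its 3 probe sets agreed within -0.59 to -0.53. *Rrm1*, the large subunit, had 2550 and 2106 (1.21-fold). *Tk1*, the thymidine salvage kinase, had 1381 and 971 (1.42-fold). *Tyms*, encoding thymidylate synthase, had 159 and 106 (1.49-fold), and these are the dimmest member signals. A brighter probe set annotated to both *Tyms* and its pseudogene was left out.

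Among the mitosis genes, cyclins and kinases lay near 0, with a median of -0.16 over 7 genes. *Cdk1*, the kinase that drives mitotic entry, had signals of 4093 and 3673, the round-cell array being given first here as elsewhere. Its cyclin partners followed it, *Ccna2* with 2611 and 2230 and *Ccnb2* with 2001 and 1753, which is 1.17- and 1.14-fold. *Aurkb* and *Birc5* encode the kinase and the survivin subunit of the chromosomal passenger complex. *Aurkb* had 901 and 807 and *Birc5* had 2504 and 2406. *Plk1*, encoding polo-like kinase 1, gave the clearest value on the other side, 696 and 839, or 1.21-fold higher in the columnar and hypertrophic array. *Aurka*, the centrosomal Aurora kinase, had 808 and 872, and its second probe set also lay on that side at a log2 difference of 0.29. *Plk1* and *Aurka* kept a positive difference in all 9 settings of scaling, floor and probe set choice. However, *Plk1* has 1 probe set, which was above every floor, so only the changes of scaling could move its value. For *Aurka*, only these and the mean over probe sets changed the value.

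Both genes that serve the anaphase-promoting complex were level between the zones. *Cdc20*, its activator, had signals of 4195 and 4450, with log2 differences of 0.03 to 0.53 over 3 probe sets. *Ube2c*, its ubiquitin-conjugating enzyme, had 3742 and 3759. Both fell just below 0 after quantile normalization, at -0.02 and -0.09, so only their closeness to 0 is reported and not a side. The 4 kinetochore and checkpoint genes were on the round side. *Bub1b*, encoding the checkpoint protein BUBR1, had 933 and 729 (1.28-fold), and *Bub1*, a checkpoint kinase gene, had 1115 and 888 (1.26-fold). *Cenpa*, the centromeric histone variant, had 2219 and 2032 and *Cenpe*, the kinetochore motor, 610 and 561, both 1.09-fold. A dimmer *Cenpa* probe set was wider apart, at 388 and 267 (1.45-fold).

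The spindle genes ranged most widely. *Kif20a*, encoding a kinesin of the central spindle, had signals of 890 and 557 (1.60-fold). *Kif11*, the Eg5 motor that pushes spindle poles apart, had 665 and 478 (1.39-fold). *Nusap1*, a spindle microtubule binder, had 2109 and 1671 (1.26-fold). *Tpx2*, which activates Aurora A on the spindle, was level at 1208 and 1176. The 2 chromosome genes were both on the round side. *Mki67*, encoding the Ki-67 proliferation antigen, had 4929 and 3722 (1.32-fold), and *Top2a*, the DNA decatenating topoisomerase, had 4891 and 4164 (1.17-fold). A dimmer *Top2a* probe set was wider apart, at 652 and 421 (1.55-fold).

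The only spread these data hold is that between probe sets of a gene. Over the 26 members for which several probe sets passed the floor in both arrays, the pooled SD of the log2 difference was 0.19, against 0.34 over 5446 such genes of the whole array. It contains no variation between embryos or RNA preparations. By the larger value, 13 of 22 S-phase members and 4 of 19 mitosis members lay below -0.34, beside 27% of all compared genes. No member lay above 0.34, where 20.4% of all genes did. Taking probe sets instead of genes, 45 of 46 compared S-phase probe sets and 29 of 36 mitosis probe sets were lower in the columnar and hypertrophic array. Their medians were -0.38 and -0.22. Over all 29258 compared probe sets, 57.6% were lower in that array and the median was -0.09. Among genes with several compared probe sets, all had the same sign in 15 of 16 S-phase genes, *Ccne1* being the exception, and in 12 of 12 mitosis genes, of which 10 lay on the round side.

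**Figure D3:**
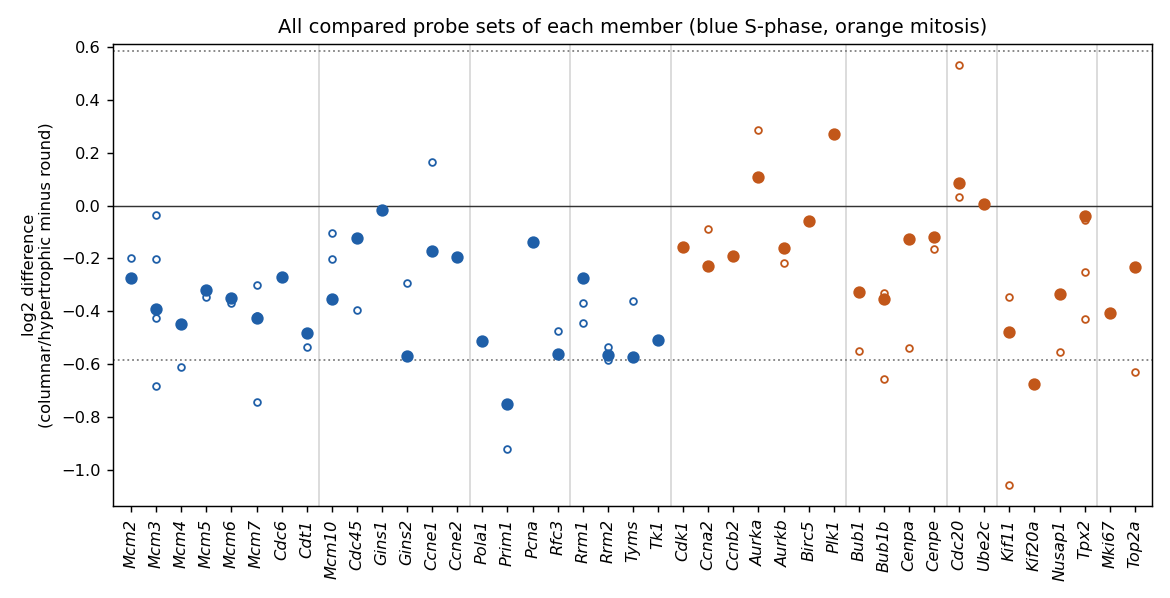
log2 difference (y axis, columnar/hypertrophic minus round) of every compared probe set by member, S-phase genes in blue and mitosis genes in orange, with vertical lines between roles. Filled circles are the brightest probe set of a gene, open circles the others, and dotted lines mark 1.5-fold. All S-phase circles but that of the second *Ccne1* probe set lie below 0, whereas *Aurka*, *Plk1*, *Cdc20* and *Ube2c* lie at or above it (*Cdc20* and *Ube2c* fall below 0 after quantile normalization or lowess centring).

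The median log2 difference of the S-phase group minus that of the mitosis group was -0.21. Of the S-phase members, 19 of 22 were below the mitosis median, and 16 of 19 mitosis members were above the S-phase median. The groups overlapped widely all the same, as 15 of 19 mitosis values fell inside the S-phase range. The 4 outside it were *Ube2c* and *Cdc20*, which lay near 0 and fell below it after quantile normalization or lowess centring, and *Aurka* and *Plk1*, which were on the columnar/hypertrophic side. Across the 9 settings the S-phase median stayed between -0.40 and -0.28 and the mitosis median between -0.22 and -0.07, with the S-phase median the lower in each. Median centring shifts both medians alike, and a lower or absent floor leaves members above the floor unchanged, so these settings could not alter the gap. Under the other alternatives it ran from -0.19 to -0.17. With 1 array per zone this gap was not tested.

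**Figure D4:**
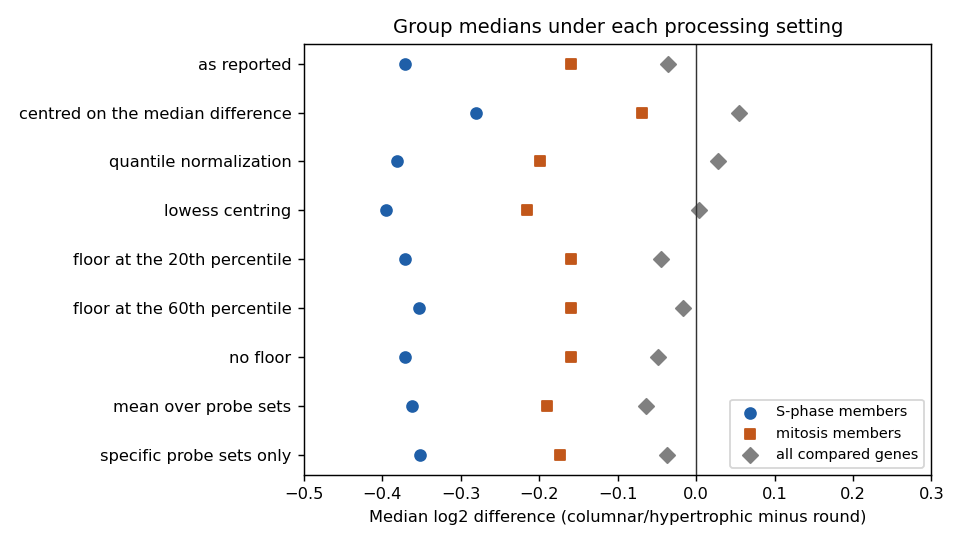
Median log2 difference (x axis, columnar/hypertrophic minus round) of the S-phase members (blue circles), mitosis members (orange squares) and all compared genes (grey diamonds) under each of 9 processing settings (y axis). The S-phase median runs from -0.40 to -0.28 and is left of the mitosis median in every setting. Median centring and a lower or absent floor could not change the gap between these medians. The median of all genes lies between -0.06 and 0.05 and changes its side of 0 with the scaling.

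Over the 9867 genes whose mean signal fell in the range of the members, the median log2 difference was -0.03 and 52.7% were higher in the round-cell array. That range spans most of the 12714 compared genes, so the set was not matched to the members by brightness. The plot of difference against signal shows the members among all genes above the floor in both arrays.

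**Figure D5:**
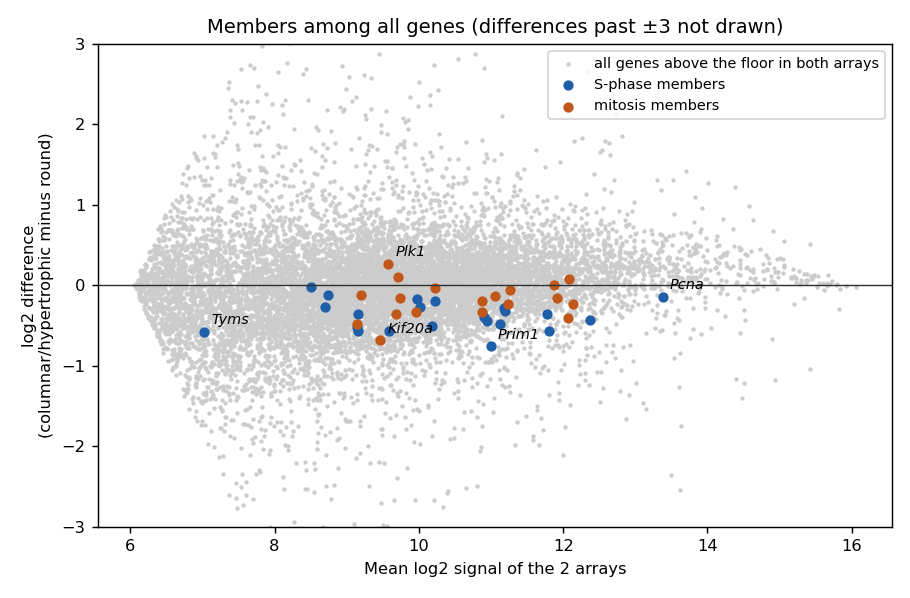
log2 difference (y axis, columnar/hypertrophic minus round) against mean log2 signal (x axis) for genes above the floor in both arrays (grey), S-phase members (blue) and mitosis members (orange). The members sit within the spread of all genes, mostly below 0, from *Prim1* at -0.75 to *Plk1* at 0.27. Lowess centring, which removes any trend with signal, left the S-phase median at -0.40 and the mitosis median at -0.22.

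Other genes of the cell cycle machinery, listed by role but with earlier results of these data known, lay mostly on the same side. Of 165 compared genes, 134 were on the round side (81.2%, beside 53.1% of all compared genes). The median log2 difference was -0.20, beside -0.04 over all genes. At 1.5-fold, 23 (13.9%) passed in the round direction, a share close to the 15.2% of all genes, and 1 in the other. Among 39 other replication genes the median was only -0.12, with 27 on the round side. The list ran from *Donson*, a replication fork factor (-0.80), and *Clspn*, encoding the checkpoint adaptor claspin (-0.75), to the polymerase delta subunit gene *Pold2* (0.41) and the nucleotide pyrophosphatase gene *Dctpp1* (0.47). For chromatin assembly and repair the median was -0.26, and 17 of 20 genes lay on the round side. Their outermost values were those of *Casp8ap2*, needed for histone gene expression (-0.90), *Brca1* (-0.75), *Fanci* (0.20) and the exonuclease gene *Exo1* (0.25).

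The kinetochore, spindle and cytokinesis lists had medians from -0.25 to -0.21, each lower than the -0.12 of the other replication genes. That order is the reverse of the one between the S-phase and mitosis members. The median for chromatin assembly and repair, -0.26, was close to the -0.25 of the kinetochore list. Each count by side stands beside the 53.1% of all compared genes on the round side. Kinetochore and checkpoint genes had -0.25 (26 of 30 on the round side), from *Ndc80* (-0.74) and *Ska2* (-0.53), both of microtubule attachment, to *Ska3* (0.37) and the centromere gene *Cenpw* (0.45). Spindle and motor genes had -0.23 (24 of 27), from *Troap* (-0.99) and the microtubule-depolymerizing kinesin gene *Kif2c* (-0.85) to *Kif15* (0.06) and the augmin subunit gene *Haus6* (0.11). All 9 cytokinesis genes were on the round side, led by *Iqgap3* (-0.78) and *Ect2* (-0.55), the latter an activator of RhoA at the cleavage site. Chromosome structure genes, a list that is not limited to mitosis, had -0.29 (11 of 15). *Esco2*, encoding a cohesin acetyltransferase of S phase, had signals of 547 and 234 and was the sole gene of these lists past 2-fold (log2 difference -1.23). *Ncapg2*, a condensin subunit gene, followed at -0.95, while its fellow subunit gene *Ncapd2* (0.16) and *Pttg1*, encoding the separase inhibitor securin (0.36), were on the other side.

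Most marker genes went with the zone labels of the specimens. Of the round or resting markers, 5 of 6 compared had signals at least 2-fold higher in the round-cell array, beside 6.17% of all genes. The exception was *Sfrp5* (log2 difference 0.08). A 2-fold higher signal in the columnar and hypertrophic array was found for 4 of 7 columnar and prehypertrophic markers, beside 4.26% of all genes. It was not reached by *Matn1* (log2 difference -0.01), *Epyc* (-0.15) and *Matn3* (0.48). Of the hypertrophic markers, 5 of 5 compared passed, although *Mmp13* was at or under the floor in both arrays. Other cell types also moved between the zones. Among perichondrial, tendon and fibroblast genes, 5 of 7 compared passed 2-fold in the round direction. The summed signal of the 8 measured genes of that list was 58283 and 28141, respectively, with *Scx* at or under the floor in both. Most of these sums came from *Col3a1* (30420 and 5232) and from *Lum*, which was level between the arrays (21458 and 22176). Erythroid genes summed to 4405 and 2383 over 5 measured, nearly all from *Tfrc* (4213 and 2166), the transferrin receptor gene that dividing cells of many kinds express. *Hba-a1* and *Slc4a1* were at or under the floor. Endothelial genes summed to 590 and 471 (6 measured, *Tek* at or under the floor). Myeloid and osteoclast genes summed to 1585 and 1820 (7 measured, with *Ptprc*, *Tyrobp* and *Acp5* at or under the floor), mostly from *Ctsk* (1231 and 1385). Skeletal muscle genes summed to 231 and 857 (6 measured, of which *Ckm*, *Myh3*, *Myl1* and *Myog* were at or under the floor). The 6 cartilage genes summed to 222382 and 257816. Of these, *Col2a1*, *Sox9* and *Col9a1* were level (log2 differences of 0.03, -0.06 and -0.02). *Acan* (0.20), *Comp* (0.52) and *Hapln1* (0.67) were higher in the columnar and hypertrophic array. Cells of these types can divide too, and their part in the cell cycle differences was not tested.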

How the data were processed

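The authors deposited 1 table of probe set intensities on a linear scale for 2 arrays. The submitters' processing notes name MAS5 without a version, while log values from robust multiarray analysis, which the methods give for heatmaps, were not used here. Means trimmed by 2% at each end were 497 and 496, and the values were used as deposited. Of 45037 probe sets, 34945 had 1 gene symbol, 932 several and 9160 were unnamed here.

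Signals at or under the 40th percentile (65.9) were set to that floor, and genes at it in both arrays were left out. A gene took its probe set of highest mean log2 signal. Among the members, 9 are read by a probe set marked as shared or cross-hybridizing (suffix s or x). The difference is the log2 signal of the columnar and hypertrophic array minus that of the round-cell array. With 1 array per zone nothing was tested. In each list of other cell cycle genes, those named had the 2 largest differences in each direction, above the floor in both arrays. Members and lists were chosen with earlier results of these data known. Promoters came from a RefSeq table of build GRCm38.p6. The steps were tested on simulated data. Alternatives changed the scaling, the floor, the choice of probe set and the size rule. Software was numpy 2.4.6 and pandas 2.3.3 under Python 3.11.15, with statsmodels 0.14.6 for lowess and matplotlib 3.10.9 for plots.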

Additional observations from a re-analysis of the deposited data

How the results depend on the processing

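No paired analysis was possible because there was a single array for either zone. That number of arrays limits the precision. Under the alternatives, the medians of both groups lay within 0.1 log2 units of the reported values and the counts of members on the round side within 1.5 times. The count of S-phase members past 1.5-fold in the round-cell array was 1 as reported and 2 after quantile normalization, after lowess centring and on specific probe sets only. That of mitosis members was 1 as reported and 2 with the mean over probe sets. A 2-fold rule, stricter by construction, left 0 in both groups, and otherwise the cause was not tested. All 326 values of single members under the alternatives moved by less than the pooled SD of 0.34, which is wide beside the differences themselves. In the S-phase group 3 members changed their side of 0 in at least 1 setting (*Gins1*, *Cdc45* and *Ccne1*), as did 4 of the mitosis group (*Birc5*, *Tpx2*, *Cdc20* and *Ube2c*). *Aurkb* has no specific probe set and was not compared in that setting, and *Tyms* was not compared with the floor at the 60th percentile.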

Other observations

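Regulators of the cell cycle, which stand outside both groups, were spread more widely than the members. Of 25 compared genes, 20 were on the round side (80%, beside 53.1% of all compared genes). Their median log2 difference was -0.16, with a range from -0.89 to 0.69. *Cdk2*, encoding the kinase that partners cyclin E and cyclin A, had signals of 2316 in round and 1251 in columnar and hypertrophic cartilage (1.85-fold). *E2f2*, an E2F transcription factor gene, had 117 and 68.5, the latter just above the floor. *Mybl2*, encoding the B-MYB transcription factor of the MMB complex, had 186 and 301, or 1.62-fold higher in the columnar and hypertrophic array, and was the only gene of the lists past 1.5-fold on that side. *Cdc25c*, a phosphatase gene of mitotic entry, had 234 and 266.

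Probe sets of a member did not all give the same difference. *Kif11* had signals of 704 and 338 on a probe set that was 2.08-fold apart, against log2 differences of -0.48 and -0.35 on its other probe sets. *Mcm7* ran from -0.74 to -0.30 over 4 probe sets, *Mcm3* from -0.68 to -0.03 over 5 and *Tpx2* from -0.43 to -0.04 over 4. The dimmest *Cdc20* probe set, with 165 and 239, gave 0.53, whereas its brighter ones gave 0.03 and 0.08. These probe sets were singled out after their values were seen.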
